A study of Homo sapiens with 12 samples.

Results

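The genes described here encode the acid hydrolases of the lysosome, the proteins of its membrane and the pump that acidifies it, measured in IMR90 cells, a widely used fibroblast line from normal human lung. The set held 40 symbols, of 16451 symbols with at least 1 read in a coding sequence in any library. They were chosen by name, with earlier results of these data known. By role there were 9 glycosidases, 3 sulfatases, 9 proteases and 6 lipid hydrolases or their cofactors. The rest were 6 membrane proteins, 6 subunits or accessory proteins of the proton pump and the transcription factor TFEB. One group was proliferating (Pro), and the other had reached replicative senescence (Sen), the lasting growth arrest that follows continuous passaging. The labels name no other agent or genotype. The deposited names of the Pro RNA-seq data carry a tag resembling DMSO, and whether a vehicle was used is not stated. Each state had 3 independent replicates, and each lysate gave 1 Ribo-seq library of ribosome-protected fragments (RPF) and 1 RNA-seq library of poly(A)-enriched RNA, so that there were 12 libraries in 4 groups. The cultures came from a pair of isolates of the line, and the labels do not say which isolate gave which sample.

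The lysosome breaks down proteins, sugars, sulfated chains and lipids with enzymes that work at acidic pH. Most of these enzymes are made in the endoplasmic reticulum, tagged with mannose 6-phosphate and carried to the lysosome by receptors, while a proton pump, the V-ATPase, keeps the lumen acidic. Factors of the MiT/TFE family, TFEB among them, bind an E-box-like motif, the CLEAR element, in the promoters of many of these genes. GLB1, the lysosomal beta-galactosidase, is the source of the activity stained as senescence-associated beta-galactosidase, the most used marker of senescent cells.

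RNA-seq libraries held 7902427 to 14144455 reads in the 5′ UTR, coding sequence and 3′ UTR together, which is the mRNA measure used here. Ribo-seq depth was uneven: replicate 1 of Pro held 54421 and replicate 2 of Sen 54708 reads in coding sequences, which are the RPF measure, against 583798 to 1718521 in the other libraries. Levels are given as CPM, that is reads scaled to the size of each library with TMM factors, and in those shallow Ribo-seq libraries 1 read was worth 17.4 and 17.6 CPM. The 10 fibroblast markers summed to 31699 to 35664 CPM in Pro and 30140 to 34882 CPM in Sen. Much of this sum was COL1A1 and COL1A2, with means of 14220 and 7643 CPM in Pro. The single markers did not all stay level. At an adjusted p under 0.15, 4 were higher and 3 lower in mRNA, with log2 fold changes from -0.93 (COL3A1) to 0.46 (THY1 and LUM). The 7 macrophage markers summed to 0.256 to 0.372 CPM in Pro and 1.17 to 1.32 CPM in Sen. ITGAM, MRC1 and AIF1 had no coding read in any library and entered the sum as 0. CD14 had 0 to 2 counts in Pro and 9 to 12 in Sen. The epithelial list (5 markers) reached at most 2.69 CPM and the endothelial list (3 markers) at most 1.03 CPM in any library. SFTPC had no coding read in any library and entered as 0, and CDH5 was at 0 reads in RNA-seq.

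Most lysosomal genes were higher in senescent cells at the mRNA level, and most of those that could be tested were also higher in ribosome-protected fragments. At an adjusted p under 0.15, the published false discovery rate of 15%, mRNA rose for 35 of the 40 genes and fell for 1, GUSB. Across all 12787 genes tested, 36.6% were called higher and 37% lower. Every Sen library was above every Pro library for 35 of the 40, against 33.5% of all genes. The median log2 fold change of the 40 genes was 0.54, with a range from -0.60 to 1.86, beside a median of -0.01 over all genes. Values are shares of a library, so a change in the share of one kind of cell and a change in RNA per cell cannot be told apart, and nothing here measures total RNA per cell.

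Among RPF, 36 of the 40 genes passed the filter on low counts, and 25 of them were higher, 0 lower and 11 not called. The all-gene background was 27.5% higher and 26.9% lower among 7521 genes. The median RPF log2 fold change of the 36 was 0.65, from -0.51 to 2.22. Sen libraries were all above Pro libraries for 20 of the 36, against 16.8% of all genes tested. Some of these separations rested on few reads in the shallow libraries. IDS had 1 read in each of them, NEU1 had 3 in each, and GLB1 had 5 in Sen replicate 2. Without both shallow Ribo-seq libraries, 27 of 38 genes were higher and the median was 0.68. DESeq2 on the same genes called 13 of the 36, and the 12 calls it lost were ARSB, ASAH1, ATP6V0D1, ATP6V1H, CTSA, CTSZ, GM2A, IDS, LAMP1, NEU1, NPC1 and NPC2. The all-gene shares above are those of the main fit. Shares of all genes without the shallow libraries or under DESeq2 are not given here, so these counts have no background beside them. Leaving out a single library ended the RPF call of 6 of the 25 genes, which are named below with their values.

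**Figure D1:**
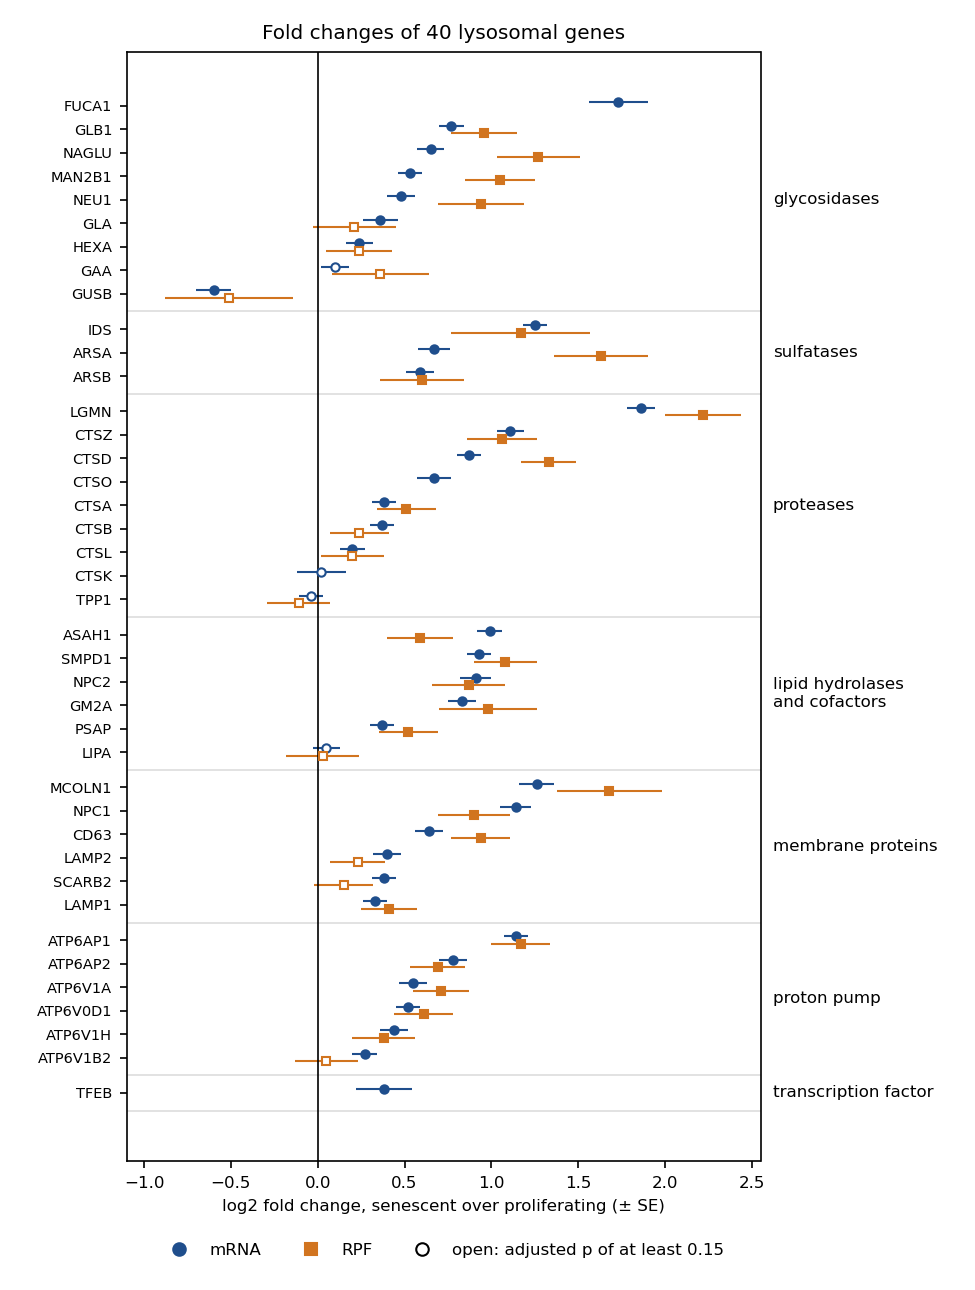
Log2 fold change of Sen over Pro (x axis, ± SE) for the 40 genes (y axis), grouped by role, with mRNA as circles and RPF as squares; filled symbols have an adjusted p under 0.15. Nearly all symbols lie to the right of 0, LGMN lies farthest at 1.86 (mRNA) and 2.22 (RPF), and GUSB is the single gene called lower.

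Summed over the 40 genes, mRNA was 5974, 6035 and 5967 CPM in Pro and 8787, 8872 and 8542 CPM in Sen. The senescent mean was 1.46 times the proliferating one, and the groups stood far apart relative to their SDs of 37.6 and 171 CPM. Summed RPF was 6785, 6944 and 7065 CPM in Pro and 11439, 8808 and 11188 CPM in Sen, a ratio of 1.51. The lowest senescent sum was that of the shallow replicate 2, and it was still above every Pro library. By role, the ratio of summed mRNA ran from 1.32 for TFEB alone and 1.36 for the glycosidases to 1.94 for the sulfatases, and the groups did not overlap for any role. Summed RPF overlapped for the proteases, where Pro replicate 1 had 2273 CPM and Sen replicate 2 had 2162 CPM, both in shallow libraries, and for TFEB, which had few reads.

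**Figure D2:**
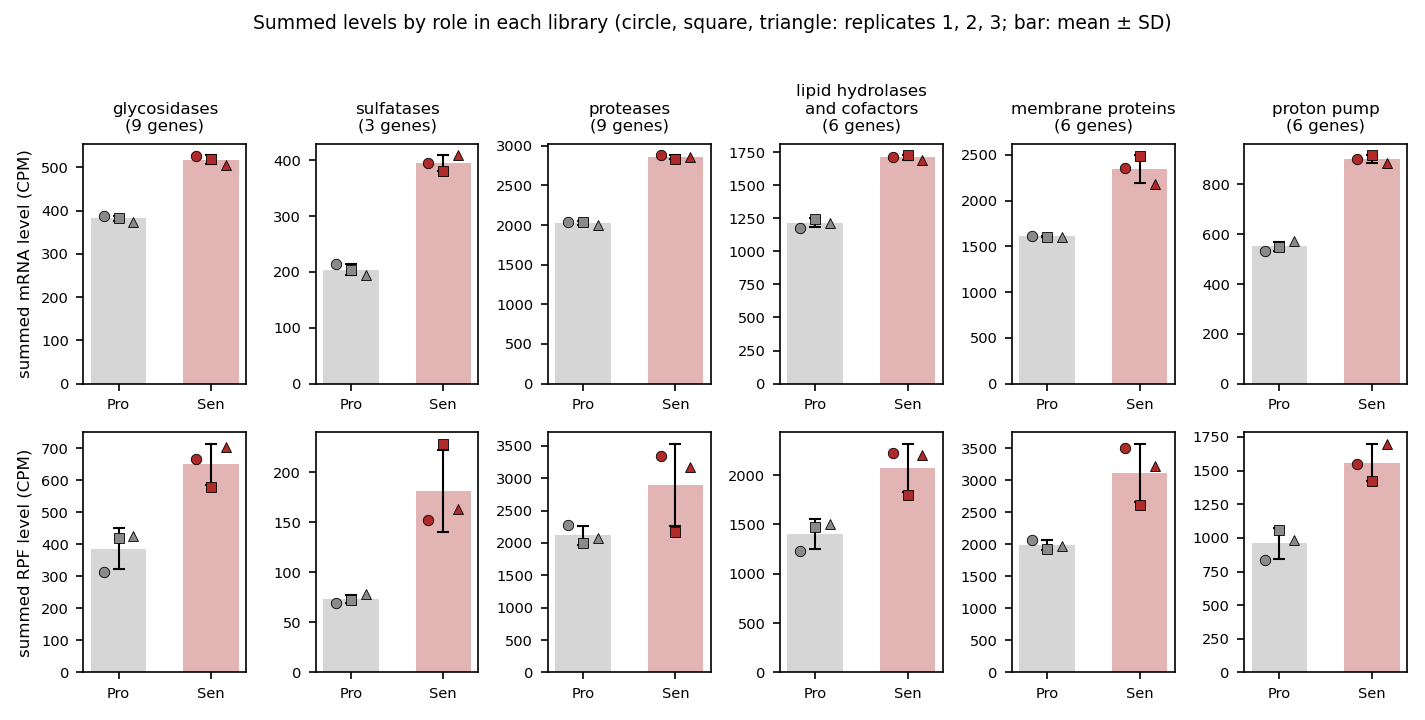
Summed CPM (y axis, from 0) of the genes of 6 roles in Pro and Sen, mRNA in the upper and RPF in the lower row; points are libraries and bars the mean ± SD of 3. All 6 roles separate in mRNA, and in RPF the proteases are the role whose libraries overlap.

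GLB1, beta-galactosidase, lies on chromosome 3 (GRCh37 annotation, 33038101 to 33138694, minus strand), where TMPPE shares its strand. Its mRNA was 65.5, 65.1 and 64.6 CPM in Pro and 118, 111 and 104 CPM in Sen. The 3 Pro libraries were nearly level and all lay below the lowest Sen library. The log2 fold change was 0.77 ± 0.07 (SE, adjusted p = 6.7e-09), a 1.70-fold higher level. GLB1 RPF rested on 1, 58 and 143 reads in Pro and 250, 5 and 84 in Sen, or 17.4, 86.1 and 85.3 CPM against 167, 87.9 and 163 CPM. The highest Pro value and the Sen replicate 2 value lay close together, and the latter stood on 5 reads. The RPF log2 fold change was 0.96 ± 0.19 (adjusted p = 1.81e-05), and over the 15 alternatives tried it stayed between 0.82 and 1.04, always called. Translation efficiency (TE), the RPF change beyond the mRNA change, was not called for GLB1, at 0.17 ± 0.20 on the log2 scale. Over 17 alternatives that value ran from 0.07 to 1.60, the latter from the analysis of partial variance, and none was called.

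In the lysosome, beta-galactosidase forms a complex with cathepsin A (CTSA), a carboxypeptidase that protects it from breakdown, and with the sialidase NEU1. CTSA mRNA was 205, 200 and 190 CPM in Pro and 263, 245 and 266 CPM in Sen, a log2 fold change of 0.38 ± 0.07 (adjusted p = 5.88e-05). The groups did not overlap. CTSA RPF was 416, 194 and 208 CPM in Pro and 328, 176 and 313 CPM in Sen, so that the shallow libraries were the highest of Pro and the lowest of Sen. Plain means of the 3 libraries were 273 CPM in Pro and 272 CPM in Sen, while the fit, which weights libraries by depth, gave 0.51 ± 0.17 (adjusted p = 0.012). This call was lost without Pro replicate 2 (0.29, adjusted p = 0.406) and without Pro replicate 3 (0.36, adjusted p = 0.335). NEU1 mRNA was 42.4, 43.0 and 41.9 CPM in Pro and 63.8, 60.3 and 53.7 CPM in Sen (0.48 ± 0.08, adjusted p = 2.36e-05). NEU1 RPF was 52.1, 35.6 and 33.4 CPM in Pro and 64.3, 52.7 and 73.9 CPM in Sen, with Pro replicate 1 and Sen replicate 2 each resting on 3 reads. Its RPF log2 fold change was 0.94 ± 0.25 (adjusted p = 0.00145). All 3 members of the complex were therefore higher in both layers in the fit, with CTSA the one whose call depended on single libraries. Under DESeq2 the RPF calls of NEU1 (0.86, adjusted p = 0.326) and CTSA (0.25, adjusted p = 0.743) were lost. With the replicate block the RPF call of CTSA was lost as well (0.20, adjusted p = 0.591).

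**Figure D3:**
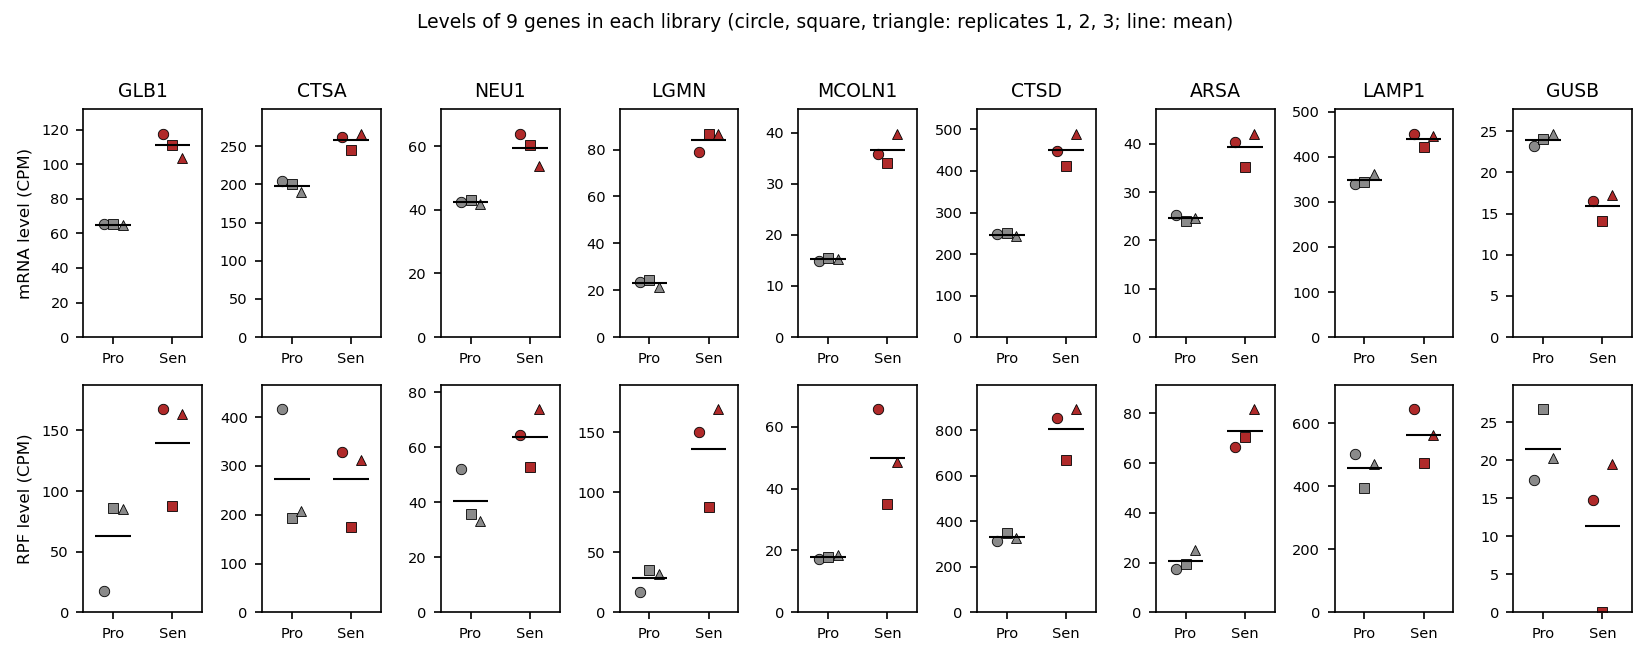
Levels in CPM (y axes, from 0) of 9 genes in each Pro and Sen library, mRNA above and RPF below; points are replicates and lines the plain mean of 3. In mRNA the groups are separate for all 9 genes, with GUSB lower in Sen. In RPF the circle of Pro and the square of Sen are the shallow libraries. RPF groups of LGMN, CTSD and ARSA stay apart, while those of CTSA, LAMP1 and GUSB overlap. Those of GLB1, NEU1 and MCOLN1 do not overlap, but by less than 1 read in Sen replicate 2. That library held 5, 3 and 2 reads of these genes.

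Among the other glycosidases, mRNA rose for FUCA1, NAGLU, MAN2B1, GLA and HEXA, was not called for GAA and fell for GUSB. FUCA1, which removes fucose from glycoproteins, was low but clearly separated, at 3.05, 2.48 and 2.14 CPM in Pro and 8.19, 8.65 and 8.23 CPM in Sen (log2 fold change 1.73 ± 0.17, adjusted p = 1.11e-08). It was not tested in RPF, where it had 0, 1 and 9 reads in Pro and 12, 0 and 6 in Sen. NAGLU, which acts in heparan sulfate breakdown, was at 30.6, 30.4 and 30.9 CPM in Pro and 50.7, 47.2 and 46.4 CPM in Sen (0.65 ± 0.08, adjusted p = 4.27e-07). Its RPF was 17.4, 29.7 and 34.6 CPM in Pro and 73.7, 52.7 and 91.4 CPM in Sen (1.27 ± 0.24, adjusted p = 1.63e-05). Both layers were separate for NAGLU. HEXA, the alpha chain of beta-hexosaminidase, had mRNA of 82.5, 75.5 and 71.8 CPM in Pro and 86.1, 98.2 and 86.8 CPM in Sen, a small difference of 0.24 ± 0.08 (adjusted p = 0.00966). HEXA RPF was 34.7, 116 and 92.4 CPM in Pro and 108, 105 and 132 CPM in Sen, which overlapped and was not called (0.24 ± 0.19, adjusted p = 0.327). MAN2B1, the lysosomal alpha-mannosidase, had log2 fold changes of 0.53 ± 0.07 in mRNA and 1.05 ± 0.20 in RPF, both called.

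GUSB, beta-glucuronidase, was the exception in direction. It lies on chromosome 7 (65425671 to 65447202, minus strand), and has pseudogene copies that could share reads. GUSB mRNA was 23.2, 24.0 and 24.7 CPM in Pro and 16.5, 14.1 and 17.3 CPM in Sen, so that every Sen library was below every Pro library. The log2 fold change was -0.60 ± 0.10 (adjusted p = 3.08e-05). GUSB RPF was 17.4, 26.7 and 20.3 CPM in Pro and 14.7, 0 and 19.4 CPM in Sen, where the 0 is in the shallow library and 3 reads, the limit a count of 0 allows, would there be 52.7 CPM. The RPF difference of -0.51 ± 0.37 was not called (adjusted p = 0.269). GAA, the acid alpha-glucosidase that degrades glycogen, had 35.5 to 39.5 CPM of mRNA in Pro and 39.2 to 43.3 CPM in Sen, and its log2 difference of 0.10 ± 0.08 did not pass the test (adjusted p = 0.284). GLA, alpha-galactosidase A, was higher in mRNA (0.36 ± 0.10, adjusted p = 0.00221) and not called in RPF (0.21 ± 0.24).

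All 3 sulfatases were higher in both layers. IDS, iduronate 2-sulfatase, which starts the breakdown of heparan and dermatan sulfate, had mRNA of 102, 98.5 and 94.8 CPM in Pro and 239, 225 and 238 CPM in Sen (1.25 ± 0.07, adjusted p = 1.09e-12). Its RPF was 17.4, 8.90 and 9.54 CPM in Pro and 22.1, 17.6 and 21.4 CPM in Sen (1.17 ± 0.40, adjusted p = 0.0134), resting on 1 to 33 reads. Between the shallow libraries the RPF levels were nearly equal, and the call was lost without Pro replicate 3 (adjusted p = 0.157) or without Sen replicate 1 (adjusted p = 0.216). A nearby pseudogene resembles IDS, so reads may be split between them. ARSA, arylsulfatase A, which desulfates sulfatide, lies on chromosome 22 (51061182 to 51066601, minus strand) and had mRNA of 25.3, 24.1 and 24.6 CPM in Pro and 40.4, 35.2 and 42.0 CPM in Sen (0.67 ± 0.09, adjusted p = 1.51e-06). ARSA RPF was 17.4, 19.3 and 25.0 CPM in Pro and 66.3, 70.3 and 81.7 CPM in Sen, from 1, 13 and 42 reads against 99, 4 and 42. The RPF groups were far apart, with a log2 fold change of 1.63 ± 0.27 (adjusted p = 6.83e-07). ARSB, which desulfates dermatan sulfate, had 0.59 ± 0.08 in mRNA and 0.60 ± 0.24 in RPF, the latter lost without Pro replicate 3 (adjusted p = 0.194).

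Of the 9 proteases, mRNA rose for 7, and CTSK and TPP1 were not called. LGMN, legumain, an endopeptidase that cuts after asparagine and processes other lysosomal proteases, had the highest fold change of the 40 genes in both layers. It lies on chromosome 14 (93170152 to 93215024, minus strand). LGMN mRNA was 23.7, 24.4 and 21.4 CPM in Pro and 79.0, 86.6 and 86.7 CPM in Sen, a log2 fold change of 1.86 ± 0.08 (adjusted p = 3.38e-14), or 3.63-fold. LGMN RPF was 17.4, 35.6 and 32.2 CPM in Pro and 150, 87.9 and 169 CPM in Sen, a log2 fold change of 2.22 ± 0.22 (adjusted p = 3.14e-14), or 4.65-fold. Every Sen value was more than all Pro values in both layers. CTSD, cathepsin D, the main aspartic protease of the lysosome, lies on chromosome 11 (1773982 to 1785803, minus strand). Its mRNA was 249, 250 and 242 CPM in Pro and 449, 413 and 490 CPM in Sen (0.87 ± 0.07, adjusted p = 1.17e-09), and its RPF was 312, 350 and 326 CPM in Pro and 854, 668 and 892 CPM in Sen (1.33 ± 0.16, adjusted p = 2.47e-10). CTSZ, a carboxypeptidase, had 1.11 ± 0.08 in mRNA and 1.06 ± 0.20 in RPF.

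Among the cysteine proteases, CTSB and CTSL had smaller fold changes in mRNA than LGMN and CTSZ. CTSB, cathepsin B, had mRNA of 1234 to 1254 CPM in Pro and 1584 to 1628 CPM in Sen (0.37 ± 0.07, adjusted p = 6.7e-05). CTSB RPF was 1215, 1072 and 1192 CPM in Pro and 1553, 826 and 1442 CPM in Sen and was not called (0.24 ± 0.17, adjusted p = 0.259). Without both shallow libraries the CTSB RPF difference was 0.41 and called (adjusted p = 0.00454). CTSL, cathepsin L, had mRNA of 87.6, 88.1 and 85.3 CPM in Pro and 101, 103 and 95.1 CPM in Sen, the smallest called increase at 0.20 ± 0.07 (adjusted p = 0.0188), lost with library totals in place of TMM factors (0.09, adjusted p = 0.262). CTSL RPF was 86.8, 128 and 130 CPM in Pro and 165, 176 and 107 CPM in Sen, overlapping (0.20 ± 0.18, adjusted p = 0.38). CTSO mRNA lay between 15.9 and 17.1 CPM in Pro and between 23.7 and 27.8 CPM in Sen (0.67 ± 0.10, called higher), and its RPF held 0, 4 and 18 reads in Pro and 27, 0 and 8 in Sen, too few to be tested. CTSK, a collagen-degrading cathepsin, had 8.55 to 9.89 CPM of mRNA in Pro and 8.41 to 10.7 CPM in Sen (0.02 ± 0.14), with 0, 9 and 17 RPF reads in Pro and 28, 1 and 5 in Sen, untested. TPP1, tripeptidyl peptidase 1, had 93.9 to 99.1 CPM of mRNA in Pro and 92.4 to 95.4 CPM in Sen, a log2 difference of -0.04 ± 0.07 that was not called (adjusted p = 0.661).

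Lipid hydrolases and their cofactors rose in mRNA for 5 of 6 and in RPF for the same 5, LIPA being the one not called in either layer. ASAH1, acid ceramidase, had mRNA of 56.5, 58.2 and 60.1 CPM in Pro and 115, 122 and 110 CPM in Sen (0.99 ± 0.07, adjusted p = 1.13e-10). Its RPF difference was smaller in the fit, at 104, 74.2 and 76.3 CPM in Pro and 105, 141 and 130 CPM in Sen (0.59 ± 0.19, adjusted p = 0.0112). SMPD1, acid sphingomyelinase, had 0.93 ± 0.07 in mRNA and 1.08 ± 0.18 in RPF. PSAP, prosaposin, the precursor of the saposins that help sphingolipid hydrolases, had mRNA of 864, 947 and 922 CPM in Pro and 1176, 1174 and 1173 CPM in Sen (0.37 ± 0.07, adjusted p = 0.000101). PSAP RPF was 885, 1158 and 1183 CPM in Pro and 1702, 1301 and 1652 CPM in Sen (0.52 ± 0.17, adjusted p = 0.0104), separate in all libraries, with the call lost without Sen replicate 1 (0.46, adjusted p = 0.16). GM2A, the activator that presents ganglioside GM2 to beta-hexosaminidase, had 0.83 ± 0.08 and 0.98 ± 0.28. NPC2, which binds cholesterol in the lumen and hands it to NPC1, had 0.91 ± 0.09 and 0.87 ± 0.21. LIPA, the acid lipase that frees cholesterol from its esters, had 45.3 to 46.8 CPM of mRNA in Pro and 45.8 to 50.9 CPM in Sen (0.05 ± 0.08, adjusted p = 0.599), and its gene overlaps several IFIT genes on the other strand.

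All 6 membrane proteins were higher in mRNA, and 4 of them in RPF. MCOLN1, the calcium channel TRPML1 of the lysosomal membrane, lies on chromosome 19 (7587510 to 7598895, plus strand) and had mRNA of 14.9, 15.5 and 15.3 CPM in Pro and 35.9, 34.0 and 39.8 CPM in Sen (1.26 ± 0.10, adjusted p = 2.01e-10). MCOLN1 RPF was 17.4, 17.8 and 18.5 CPM in Pro and 65.7, 35.2 and 48.6 CPM in Sen (1.68 ± 0.30, adjusted p = 2.59e-06), from 1, 12 and 31 reads against 98, 2 and 25. Both layers were separate. NPC1, the cholesterol exporter, had mRNA of 29.0, 27.9 and 25.0 CPM in Pro and 57.1, 60.3 and 62.9 CPM in Sen (1.14 ± 0.09, adjusted p = 1.13e-10). NPC1 RPF was 191, 62.3 and 57.2 CPM in Pro and 116, 35.2 and 138 CPM in Sen, overlapping, with the shallow libraries, of 11 and 2 reads, at the opposite ends. The fit gave 0.90 ± 0.21 (adjusted p = 0.000395), and DESeq2 gave 0.15 (adjusted p = 0.949). LAMP1, a heavily glycosylated protein that lines the membrane, had mRNA of 340, 345 and 363 CPM in Pro and 451, 422 and 447 CPM in Sen (0.33 ± 0.07, adjusted p = 0.000233). LAMP1 RPF was 503, 395 and 471 CPM in Pro and 644, 475 and 564 CPM in Sen (0.41 ± 0.16, adjusted p = 0.0324). These RPF groups overlapped, and the call was lost without Pro replicate 2 (0.27, adjusted p = 0.435), without Pro replicate 3 (0.47, adjusted p = 0.172) or without Sen replicate 1 (0.30, adjusted p = 0.358). CD63, a tetraspanin of late endosomes and lysosomes, had 0.64 ± 0.08 in mRNA and 0.94 ± 0.17 in RPF. LAMP2, needed for the fusion of autophagosomes with lysosomes, and SCARB2, which carries glucocerebrosidase to the lysosome, had mRNA log2 fold changes of 0.40 ± 0.08 and 0.38 ± 0.07, and RPF values of 0.23 ± 0.16 and 0.15 ± 0.17 that were not called.

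All 6 genes of the proton pump were higher in mRNA, and 5 in RPF, with ATP6V1B2 as the exception. ATP6AP1, an accessory protein of the pump's membrane sector, had 1.14 ± 0.07 in mRNA and 1.17 ± 0.17 in RPF, and ATP6AP2, the other accessory protein, had 0.78 ± 0.08 and 0.69 ± 0.16. ATP6V1A, the catalytic subunit that binds ATP, had 0.55 ± 0.08 and 0.71 ± 0.16, and ATP6V0D1, which couples the sectors, 0.52 ± 0.07 and 0.61 ± 0.17. ATP6V1B2, the other subunit of the ATP-binding ring, had mRNA of 82.5, 88.6 and 87.0 CPM in Pro and 106, 105 and 101 CPM in Sen (0.27 ± 0.07, adjusted p = 0.00185), and RPF of 86.8, 120 and 118 CPM in Pro and 131, 105 and 107 CPM in Sen (0.05 ± 0.18, adjusted p = 0.832). Its RPF groups overlapped widely. ATP6V1H, a regulatory subunit, had mRNA of 44.9, 44.3 and 48.2 CPM in Pro and 59.6, 68.9 and 57.8 CPM in Sen (0.44 ± 0.08, adjusted p = 8.67e-05). ATP6V1H RPF was 69.4, 135 and 111 CPM in Pro and 159, 105 and 152 CPM in Sen (0.38 ± 0.18, adjusted p = 0.0731), and this call was lost without Pro replicate 3 (0.28, adjusted p = 0.468) or without Sen replicate 1 (0.33, adjusted p = 0.363).

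TFEB itself was low. Its mRNA was 4.39, 4.96 and 5.21 CPM in Pro and 6.70, 5.57 and 6.95 CPM in Sen, a log2 fold change of 0.38 ± 0.16 (adjusted p = 0.0436), and the call was lost without Sen replicate 3, where the value was 0.30 (adjusted p = 0.150069). TFEB RPF held 0, 2 and 6 reads in Pro and 8, 0 and 6 in Sen and was not tested. Its relatives TFE3 and MITF were higher in mRNA at 0.56 ± 0.07 and 1.05 ± 0.09, TFE3 also in RPF at 0.67 ± 0.25 (adjusted p = 0.0265), while TFEC had 1 count in each Pro and 3 to 6 counts in each Sen RNA-seq library and was not tested.

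The promoters of these genes are shown for the motif that the MiT/TFE factors bind. Any link between this motif and the changes in senescent cells was not tested. RefSeq promoters (GRCh38.p14, 250 bases before and 50 after the start of a gene) were found for 27 of the 40 genes. The E-box CACGTG, which reads the same on both strands, was in 8 of the 27 (29.6%) against 7.43% of all 27305 promoters, and the core of the CLEAR element, TCACGTGA, which is also its own reverse complement and contains the E-box, was in 5 of the 27 (18.5%) against 1.04%. The element is already known from the promoters of many of these genes, so a share above that of all promoters is no separate finding. The holders of the core were ATP6V0D1, CTSA, GAA, LAMP1 and MCOLN1, and CTSD, NEU1 and CD63 held the E-box alone. Below are the 200 bases before the start of 4 genes with the core, of CTSD with the E-box alone and of GLB1, the beta-galactosidase gene, for contrast, each 5′ to 3′ on the strand of the gene with E-boxes in capitals.
LAMP1, chr13:113297039-113297238 (+ strand): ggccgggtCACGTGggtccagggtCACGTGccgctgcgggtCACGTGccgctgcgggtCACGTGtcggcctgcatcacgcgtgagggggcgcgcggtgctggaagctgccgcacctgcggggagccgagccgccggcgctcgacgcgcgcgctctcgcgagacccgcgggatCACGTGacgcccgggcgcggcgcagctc
CTSA, chr20:45891135-45891334 (+ strand): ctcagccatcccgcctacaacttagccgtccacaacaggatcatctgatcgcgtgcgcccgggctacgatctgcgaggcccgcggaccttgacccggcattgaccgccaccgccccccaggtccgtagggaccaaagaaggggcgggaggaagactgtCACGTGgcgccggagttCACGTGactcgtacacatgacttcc
MCOLN1, chr19:7522424-7522623 (+ strand): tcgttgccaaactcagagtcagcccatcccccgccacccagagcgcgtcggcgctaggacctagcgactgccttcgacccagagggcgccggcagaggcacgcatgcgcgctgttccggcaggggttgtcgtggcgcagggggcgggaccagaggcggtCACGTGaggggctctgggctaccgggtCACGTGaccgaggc
ATP6V0D1, chr16:67481158-67481357 (- strand): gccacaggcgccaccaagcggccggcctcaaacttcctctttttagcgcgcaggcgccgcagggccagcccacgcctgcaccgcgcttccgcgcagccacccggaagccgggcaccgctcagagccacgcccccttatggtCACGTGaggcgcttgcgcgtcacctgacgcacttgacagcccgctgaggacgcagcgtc
CTSD, chr11:1763928-1764127 (- strand): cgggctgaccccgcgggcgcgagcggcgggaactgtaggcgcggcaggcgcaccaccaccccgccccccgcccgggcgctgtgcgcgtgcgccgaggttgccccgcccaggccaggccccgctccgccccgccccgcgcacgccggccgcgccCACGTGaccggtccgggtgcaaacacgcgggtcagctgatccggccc
GLB1, chr3:33096823-33097022 (- strand): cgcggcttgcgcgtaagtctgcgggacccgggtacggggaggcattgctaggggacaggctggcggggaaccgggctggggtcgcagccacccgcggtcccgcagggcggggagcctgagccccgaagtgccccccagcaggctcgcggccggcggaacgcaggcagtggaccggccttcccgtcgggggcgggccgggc

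The 5 E-boxes of LAMP1 began 192, 176, 159, 142 and 28 bases before the start, and the one nearest to it is flanked by the letters of the core. In CTSA they began at 42 and 25 bases, in MCOLN1 at 41 and 14, in ATP6V0D1 at 59 and in CTSD at 47. In GAA, the holder of the core whose sequence is not shown, they began at 76 and 31. GLB1 had no such letters in this window, which says nothing about other windows. The mRNA log2 fold changes of genes that hold the core ran from GAA at 0.10, not called, through LAMP1 at 0.33 and CTSA at 0.38 to MCOLN1 at 1.26. LGMN was not among the 27 genes with a promoter sequence.

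Changes in RPF mostly had the sign of changes in mRNA. Of the 36 genes tested in both layers, 34 were positive in both, 0 had opposite signs and 21 (58.3%) had the larger value in RPF. Of all 7473 genes, 40.6% were positive in both, 20.6% had opposite signs and 48.4% had the larger value in RPF. TE, tested as the interaction of library type and state, had a median of 0.04 on the log2 scale over the 36 genes, was higher for 2 and lower for 0, against 4.88% and 4.48% of 7473 genes. ARSA had a TE difference of 0.91 ± 0.30 (adjusted p = 0.0725). Its log2 ratio of RPF to mRNA was 0.04, -0.27 and 0.04 in Pro and 0.72, 1.17 and 0.97 in Sen, so that the lysates of the states were separate. Such separation was not particular to ARSA: of the 36 genes, 4 had every Sen ratio above and 2 every Sen ratio below. Of all 7473 genes, 571 were above and 642 below. CTSD had a TE difference of 0.43 ± 0.16 (adjusted p = 0.134), with log2 ratios of 0.37, 0.49 and 0.43 in Pro and 0.93, 0.71 and 0.87 in Sen. Both calls were lost under DESeq2 and when Pro replicate 2, Pro replicate 3, Sen replicate 1 or Sen replicate 3 was left out. Without both shallow libraries 4 of 38 were called higher, and the share of all genes in that fit is not given here.

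**Figure D4:**
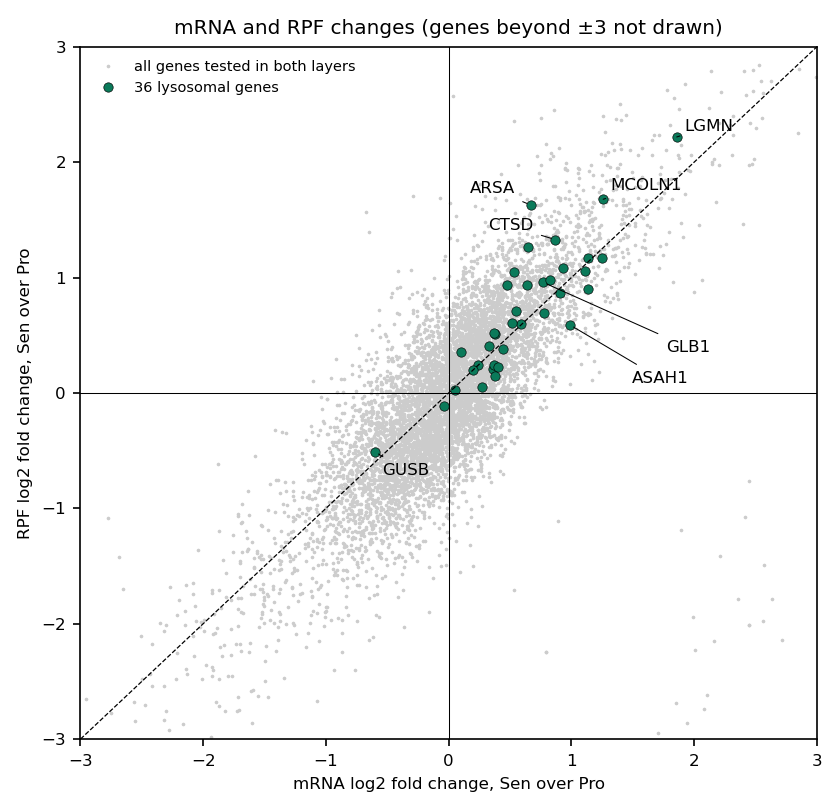
Log2 fold change in RPF (y axis) against that in mRNA (x axis), Sen over Pro, for all genes tested in both layers (grey) and the 36 lysosomal genes (green); the dashed line marks equal change. The lysosomal genes lie along the line, 34 of 36 with both values above 0, with ARSA (0.67, 1.63) above it and ASAH1 (0.99, 0.59) below.

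Sorted into the study's 3 modes, 23 of the 36 genes were in the mRNA abundance mode against 41.8% of all 7473 genes. This mode takes genes called in the same direction in both layers that are not in the translation mode. The translation mode takes genes called in TE and RPF in the same direction. It held 2 genes (5.56%), ARSA and CTSD, and the buffering mode held 0. Of all genes 7.19% were in the translation and 1.65% in the buffering mode, so neither count stands above the background. Under DESeq2, 13 were in the abundance mode, and the share of all genes under that setting is not given here. IDS stood out in its ratio of RPF to mRNA in both states. Its log2 ratio was -1.97, -3.35 and -3.27 in Pro and -3.41, -3.09 and -3.41 in Sen, with the least negative value resting on 1 read, and its TE difference of -0.13 ± 0.42 was not called.

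Levels per kilobase of coding sequence place the genes on a common scale. In RNA-seq coding reads of Pro, CD63 led with 997 ± 90.2 CPM per kb (SD, n = 3), followed by CTSB (601 ± 9.99), PSAP (377 ± 21.8) and LAMP1 (198 ± 4.57). The same 4 led in Sen, with CD63 at 1582 ± 207, CTSB at 761 ± 9.35, PSAP at 489 ± 4.32 and LAMP1 at 251 ± 11.6, and there CTSD (246 ± 20.2) was within the spread of LAMP1. RPF per kb had the order CD63, CTSB, PSAP in both states, at 1473 ± 179, 1140 ± 75.6 and 684 ± 105 in Pro and 2675 ± 409, 1253 ± 385 and 987 ± 139 in Sen, where CTSB and PSAP lay within their spread. CTSD RPF per kb was 266 ± 15.6 in Pro and 651 ± 97.0 in Sen, below LAMP1 (365 ± 44.5) in Pro and above it (448 ± 67.9) in Sen, with no test of that order. GLB1, by contrast, ranked in the middle, 20th of the 40 in RNA-seq coding reads of Pro with 29.4 ± 0.650 CPM per kb and 19th in Sen with 50.2 ± 3.27. TFEB and FUCA1 were the lowest in both measures. IDS ranked 19th in RNA-seq and 37th in RPF of Pro.

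The place of reads along the mRNA changed for few of the genes. The share of 3′ UTR reads among coding and 3′ UTR reads was above in every Sen library for 1 gene, ARSA, at 12.2% ± 1.87 in Pro and 15.8% ± 0.950 in Sen, against 8.83% of 11056 genes. It was below for CD63, at a share of 0.0281% ± 0.00442 and 0.00621% ± 0.00538, which is close to no reads in either state, against 3.82% of genes. GLA had 0% in all 6 libraries, and the human GLA mRNA is known to lack a 3′ UTR.

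The same direction was seen in other lysosomal genes, taken from lists of 76 genes that share no member with the 40. These lists too were chosen with earlier results of these data known, so they are not an independent check. In mRNA, 51 of 73 tested were higher and 8 lower, with a median of 0.48. In RPF 43 of 61 were higher and 1 lower, with a median of 0.68. The shares of all genes, to be set beside each list, were 36.6% higher and 37% lower in mRNA. They were 27.5% and 26.9% in RPF. Among 29 other hydrolases tested in mRNA, 21 were higher, led by ARSG (1.45 ± 0.09), and 4 lower, with CTSH, cathepsin H, at -1.47 ± 0.18. In RPF, 16 of 23 were higher, led by the phospholipase PLA2G15 (1.33 ± 0.24), and AGA was lower (-0.91 ± 0.34).

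Other proton pump subunits were higher for 9 of 12 in mRNA, from ATP6V1F (0.36 ± 0.08) to ATP6V1G1 (1.34 ± 0.09), and for 9 of 11 in RPF, from ATP6V1E1 (0.36 ± 0.17) to ATP6V0A1 (1.79 ± 0.22). TE was lower for ATP6V1G1 (-0.53 ± 0.20, adjusted p = 0.136) and higher for TCIRG1 (0.65 ± 0.24, adjusted p = 0.117). Other membrane proteins were higher for 13 of 19 in mRNA and lower for 1, from LAPTM4B (-0.37 ± 0.07) to the sialic acid exporter SLC17A5 (1.27 ± 0.08), and higher for 11 of 15 in RPF, led by HGSNAT (1.36 ± 0.21) with LAPTM4A (0.33 ± 0.16) the lowest called. The sorting machinery was the most mixed in mRNA, with 6 of 11 higher and 3 lower, from CLN6 (-0.83 ± 0.10) to CLN8 (1.19 ± 0.09). The mannose 6-phosphate receptors moved in opposite directions in mRNA, IGF2R at 0.48 ± 0.09 and M6PR at -0.17 ± 0.08 (adjusted p = 0.0547). In RPF 6 of 10 sorting genes were higher, from IGF2R (0.45 ± 0.16) to GNPTG (1.22 ± 0.28), a subunit of the enzyme that starts the mannose 6-phosphate tag.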

How the data were processed

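Ribo-seq and poly(A) RNA-seq of the same lysates were deposited as 1 table per library. The deposited values are expected counts: the authors assigned reads to the 5′ UTR, coding sequence and 3′ UTR of each gene symbol, with some fractional reads. Per the submitters' processing notes cutadapt 1.18, Bowtie 1.0.1, SAMtools 1.8 and DESeq2 1.22.2 were used; the genome build, annotation, strand rule and treatment of reads with several placements are not given in the sources used here. The names of the proliferating RNA-seq tables carry a tag resembling DMSO, which the labels do not mention.

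Region counts were summed and rounded. The plan had assumed whole counts, and the same test was kept. Symbols with at least 1 coding read were filtered with filterByExpr, scaled with TMM within each library type and tested with edgeR 4.0.16 (quasi-likelihood, Benjamini-Hochberg, two-sided, R 4.3.3), separately for mRNA and RPF. TE was the interaction in a fit of all 12 libraries with the lysate as a block. Modes followed the calls of the 3 tests, since anota2seq was not run. Linear levels are TMM-scaled CPM, and log2 ratios of RPF to mRNA used a prior of 0.5 reads. Scripts were tested on simulated data.

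Replicates differed by more than sampling noise. Same-numbered Pro and Sen libraries did not deviate together (r from -0.0605 to 0.0743 in mRNA and from 0.0270 to 0.0482 in RPF), so numbers were not taken to pair states. RNA-seq and Ribo-seq of 1 lysate had r from -0.0672 to 0.0945. Values in every library are given for GLB1, CTSA and NEU1 and for the 5 called members at each end of the fold changes of a layer; CTSB and, among other genes, M6PR were added after their values were seen. Members and lists were chosen with earlier results of these data known. Gene spans came from GENCODE on GRCh37 by symbol and promoters from RefSeq on GRCh38.p14. Alternatives were other scalings, filters, tests, thresholds, blocks and left-out libraries. The values of 1 gene of the other hydrolases are not reported here.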

Additional observations from a re-analysis of the deposited data

Results flagged for a closer look

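Translation efficiency was called higher in Sen for ARSA, with a log2 difference of 0.91, and for CTSD, with 0.43, by the test of the interaction itself. These were 2 of 36 genes, near the 4.88% of all genes called higher. Over the alternatives tried the adjusted p of ARSA ran from 0.0209 to 0.999 and that of CTSD from 0.0459 to 0.999. ARSA rested on 1 read in Pro replicate 1 and 4 in Sen replicate 2, and CTSD on 18 and 38, which are the shallow Ribo-seq libraries. Without both, 4 of 38 genes had a higher TE, and the share of all genes in that fit is not given here. The part of depth in these differences was not tested further.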

How the results depend on the processing

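Of the single-gene values under alternatives, 611 of mRNA kept their direction and side of the threshold, 20 lost and 1 gained the call and 8 changed sign; the counts were 496, 37, 3 and 12 in RPF, and 64, 17, 0 and 6 in TE. Library totals in place of TMM moved the median of all genes to -0.11 in mRNA and -0.14 in RPF, and 2 genes were then lower in mRNA (GUSB and TPP1). A change over 0.6 left 18 higher and 0 lower in mRNA, and the share of all genes past this limit is not given here. In RPF, DESeq2 called 13 and a minimum of 10 counts in every library left 8 genes, 7 of them higher. For these counts and those that follow, shares of all genes under the same settings are not given here either. TE was higher for 0 genes with DESeq2, voom, the analysis of partial variance or a threshold of 0.05, for 1 with at least 1 read or with at least 10 counts, and for 4 with no replicate block or without the shallow libraries. Leave-one-out counts ran from 0 to 4 for TE and for the translation mode and from 2 to 7 for the 3′ UTR share, whose value with all libraries was 1. DESeq2 gave 13 genes in the abundance and 0 in the translation mode, and a threshold of 0.05 also gave 0. With the replicate block across states, 35 genes rose and 1 fell in mRNA, and 21 rose in RPF, where ATP6V1H, CTSA, IDS and LAMP1 lost the call. Values that were not called changed sign: in mRNA GAA (-0.002), CTSK (-0.09) and LIPA (-0.06) with library totals, and CTSK (-0.05) and TPP1 (0.01) with coding reads alone; in RPF GLA (-0.03), TPP1 (0.04) and ATP6V1B2 (-0.03) with the replicate block, LIPA (-0.11) and ATP6V1B2 (-0.08) with library totals and LIPA (-0.002) without the shallow libraries; in TE CTSA with DESeq2 (-0.16), partial variance (-2.38) and at least 10 counts (-0.06). Leaving out 1 library in turn, mRNA of CTSK ran from -0.12 to 0.07 and of LIPA from -0.01 to 0.07; RPF of GLA ran from -0.05 to 0.35, of CTSL from -0.12 to 0.40, of TPP1 from -0.24 to 0.14, of LIPA from -0.07 to 0.16 and of ATP6V1B2 from -0.12 to 0.15; and TE of CTSA ran from -0.13 to 0.16. The cause of these changes was not tested.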
